A study of Homo sapiens with 8 samples.

Results

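Peaks of the tumour suppressor p53 were examined in 293T cells at 5 loci grouped as antiproliferative p53 targets besides CDKN1A, namely BTG2, SFN, PLK3, PLK2 and ZMAT3. The loci were fixed windows on build hg19 around each gene, and a peak was a member when it overlapped a window by 1 bp or more. Of the 97582 peaks in 4 deposited lists, 41 fell in the windows, and they merged into 18 of the 63890 sites that all lists formed together. Every window held at least 1 peak in each of the 4 libraries, so no locus was empty. The windows were drawn by gene, not by peak values, but they were chosen with earlier results of these data known. The RNA of these genes was not measured, so a peak is no evidence here that the gene was switched on.

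293T is a human embryonic kidney line that expresses the large T antigen of a simian virus, a protein that binds p53, and this holds for every library. The treated cells received doxorubicin at 0.5 µg/ml for 24 h (Dox), and the control cells received 20 µl of the vehicle phosphate-buffered saline for the same time (PBS). Each condition had 2 chromatin immunoprecipitation (ChIP) libraries made with a p53 antibody, replicate 1 from cells at passage 3 and replicate 2 from cells at passage 5. List length ran from 11304 peaks in PBS replicate 1 to 46658 in Dox replicate 1, with 16642 in the other Dox library and 22978 in the other PBS library. The lists do not state read depth. The identity of the cells was not checked, since peak lists carry no marker expression. In a population of cells, binding in fewer cells and weaker binding per cell cannot be told apart.

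p53 binds DNA as a tetramer, at an element made of decamers with a conserved C and G in their core, and raises transcription of genes that stop the cell cycle, repair DNA or start cell death. CDKN1A is the best known of its targets that halt division, and the genes described here are grouped beside it. PLK3 and PLK2 encode polo-like kinases, serine/threonine kinases of the stress response and of centriole duplication. BTG2 encodes an antiproliferative protein that works with the CCR4-NOT deadenylase. SFN encodes stratifin, which holds cyclin-dependent kinase 1 in the cytoplasm and so delays mitosis. ZMAT3 encodes a zinc finger protein that binds RNA and acts in splicing and mRNA stability.

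The windows were BTG2 on chromosome 1 from 203264000 to 203289000, SFN on chromosome 1 from 27179000 to 27201000, PLK3 on chromosome 1 from 45255000 to 45282000, PLK2 on chromosome 5 from 57739000 to 57766000, and ZMAT3 on chromosome 3 from 178725000 to 178800000. No annotation of hg19 was used here, so the exon, intron or promoter under a peak is not stated. By gene order in RefSeq (GRCh38.p14), the nearest protein-coding neighbours were CHIT1 and FMOD for BTG2, ZDHHC18 and GPN2 for SFN, BEST4 and DYNLT4 for PLK3, and ACTBL2 and GAPT for PLK2. DYNLT4 overlaps the end of PLK3. For ZMAT3 they were LOC124909461 and PIK3CA. A peak in a window is therefore close to the gene but is not tied to it by these data.

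Promoter sequence was read for all 5 genes from RefSeq (GRCh38.p14), which gave 6 start regions, 2 of them for ZMAT3. The p53 consensus decamer (10 bases, its own reverse complement, so that a match counts on both strands) was searched from 250 bases before to 50 bases after each start. PLK2 alone of the 5 held an exact match, from 132 to 123 bases before its start, against 6.63% of all 35116 promoters in the table. With 1 other base allowed outside the core C and G, PLK2 gained a second match that overlaps the first, and SFN and 1 of the ZMAT3 promoters held 1 match each, against 45.1% of all promoters. PLK3 and BTG2 held none by either rule. No promoter of the 5 genes held a pair of exact decamers up to 13 bases apart, a feature of 0.0285% of all promoters (10 of 35116). A match is a string of letters and no measured site. The peaks are on another build, so whether a peak covered one of these stretches was not tested.

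Shown 5′ to 3′ are the 250 bases before the start of PLK3, the locus with the strongest peak (GRCh38.p14, chr1:44800127-44800376, plus strand), of PLK2, which held the exact match (chr5:58460087-58460336, minus strand), and of SFN, the locus whose best peak was the weakest (chr1:26862899-26863148, plus strand). Capitals mark the decamer matches with at most 1 other base.
PLK3: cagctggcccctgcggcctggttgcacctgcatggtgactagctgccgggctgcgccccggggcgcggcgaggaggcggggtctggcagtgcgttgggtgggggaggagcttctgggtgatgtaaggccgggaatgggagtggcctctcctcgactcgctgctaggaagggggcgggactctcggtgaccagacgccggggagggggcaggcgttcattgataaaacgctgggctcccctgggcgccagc
PLK2: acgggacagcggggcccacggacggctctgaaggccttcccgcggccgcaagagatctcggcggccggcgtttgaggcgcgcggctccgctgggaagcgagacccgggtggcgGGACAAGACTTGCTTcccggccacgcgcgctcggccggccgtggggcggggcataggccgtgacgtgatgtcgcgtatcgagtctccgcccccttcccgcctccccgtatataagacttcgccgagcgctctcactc
SFN: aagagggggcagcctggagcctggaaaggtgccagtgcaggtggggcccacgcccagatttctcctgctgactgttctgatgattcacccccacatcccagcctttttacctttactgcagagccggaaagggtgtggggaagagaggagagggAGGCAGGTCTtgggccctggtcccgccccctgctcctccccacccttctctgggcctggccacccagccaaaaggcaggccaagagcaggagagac
The PLK2 capitals hold the overlapping pair of matches, and the exact one is AGACTTGCTT.

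In every library all 5 windows held a peak. Of 25 kb tiles laid along the chromosomes, 20.6% and 9.47% held a peak of Dox replicates 1 and 2, and 6.83% and 12.8% held one of PBS replicates 1 and 2. A peak in each of the 4 libraries was found in 3.78% of 25 kb tiles and in 10.7% of 75 kb tiles, the latter the length of the ZMAT3 window. The tiles cover gene deserts as well as genes, whereas each window was drawn around a gene. The windows also surround genes known as p53 targets, and they were chosen with earlier results of these data known. The count of 5 of 5 windows lay above those shares in Dox and in PBS, and the number of windows with a peak did not differ between the conditions (5 against 5 in both libraries of each).

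**Figure D1:**
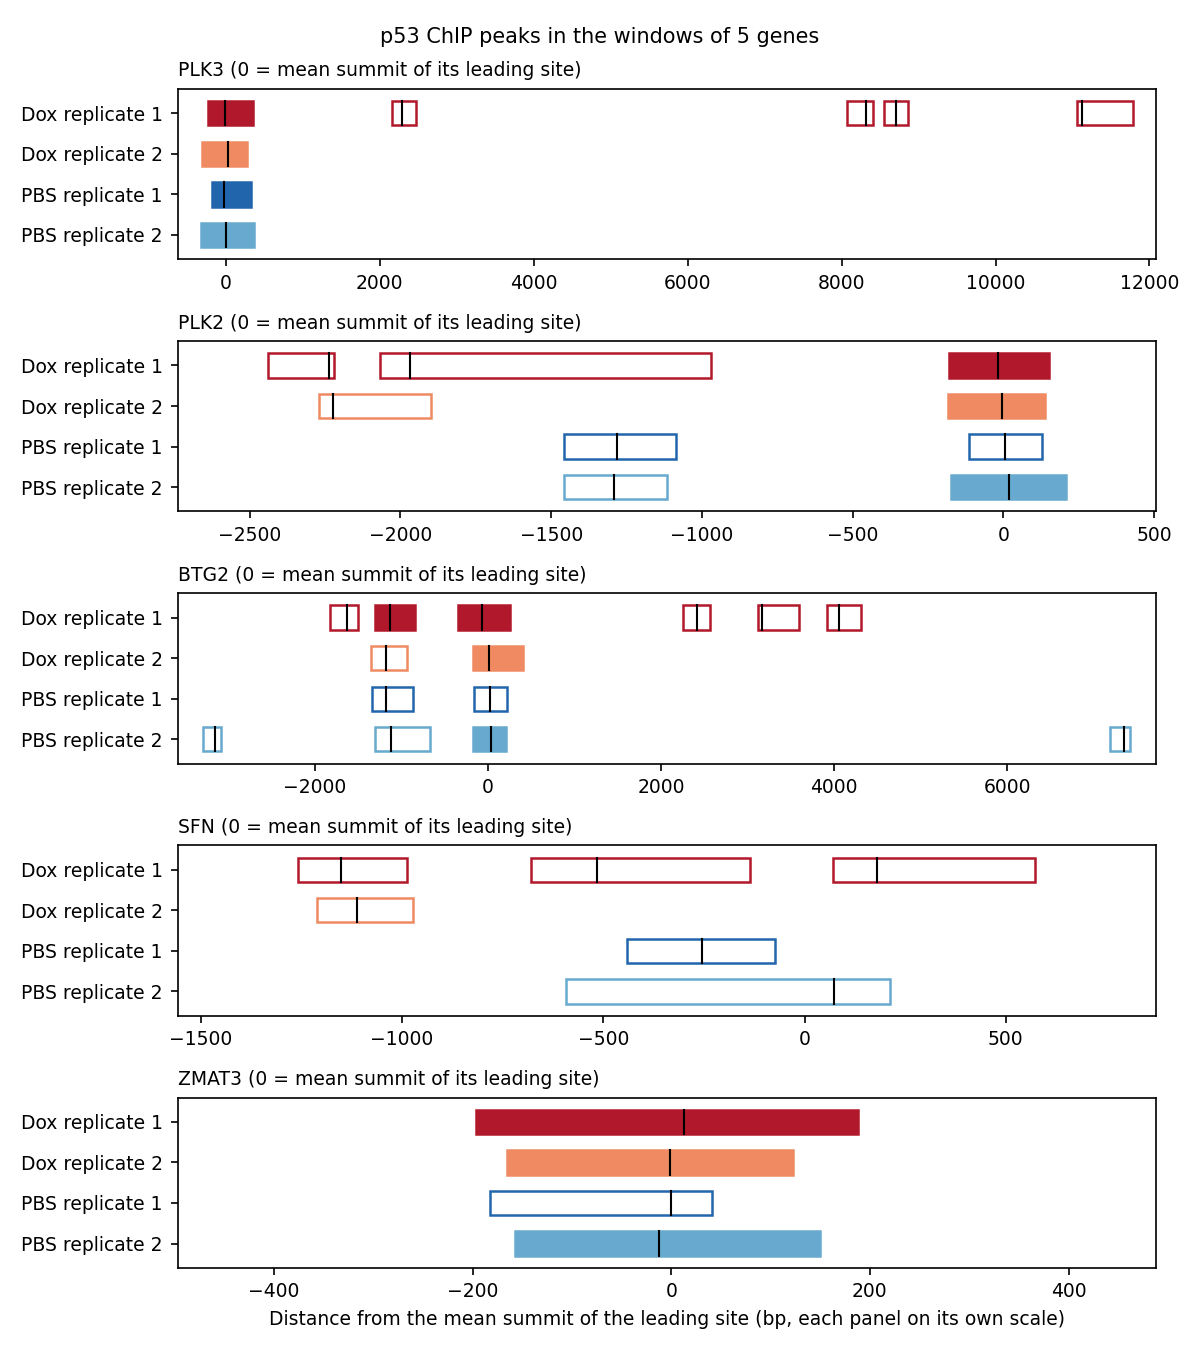
Peaks in the 5 windows by library. The x axis is the distance in bp from the mean summit of the leading site of each locus, on a scale of its own per panel; boxes are peaks, filled where q was at most 0.05 and open where it was not, and black lines are summits. The leading sites of PLK3, PLK2, BTG2 and ZMAT3 line up over the 4 libraries, the SFN peaks do not, and most isolated peaks belong to Dox replicate 1.

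Sites are numbered along the chromosome within each window. Of the 18 sites, 6 had a peak in all 4 libraries, against 6.01% of all sites, 1 in 3 libraries, 1 in 2 and 10 in 1 library. The 6 were the BTG2 sites 3 and 4, PLK3 site 1, both PLK2 sites and ZMAT3 site 1, and SFN had none. PLK2 site 1 counts as shared through the merging only, since no base of it was covered by a peak in all 4 libraries. Of the 10 sites of a single library, 8 came from Dox replicate 1, the longest list, and 2 from PBS replicate 2. Sites of Dox replicate 1 alone made up 48.5% of all sites, so their share among the 18 sites of these loci was close to that of the whole series. A q of at most 0.05 was reached by 3.65% and 4.84% of all peaks of Dox replicates 1 and 2 and by 2.56% and 5.84% of those of PBS replicates 1 and 2. In the windows 14 of the 41 peaks reached it, and all 14 lay in sites shared by the 4 libraries, none in a site of a single library. The share of such peaks that lay in shared sites over the whole lists was not computed. The count of 14 is therefore not read as a trait of these loci.

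PLK3 had the strongest site of the 5 loci in each library, on chromosome 1 from 45265279 to 45265973. Its fold enrichment, the authors' ratio of ChIP signal at the summit to the local background, was 10.4 and 8.34 in Dox replicates 1 and 2 and 6.10 and 11.8 in PBS replicates 1 and 2. The highest value was thus in a PBS library and the lowest in the other, and the Dox values lay between them. By p the peak ranked 91 of 46658, 115 of 16642, 166 of 11304 and 67 of 22978 in the same order, which put it in the top of each list. Its −log10 q was 12.6, 8.60, 3.07 and 18.0, and PLK3 site 1 was the only site of the 18 with q of at most 0.05 in all 4 libraries. The summits lay at 45265602, 45265634, 45265588 and 45265606, within 46 bp. The other 4 PLK3 sites were each a peak of Dox replicate 1 alone, between 2.18-fold and 2.62-fold. Of these, 1 lay above the list median of 2.47 and 3 lay below it, at the percentiles 32.7, 28.8 and 17.9 of fold.

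BTG2 held 2 sites shared by all libraries, with summits 1069 to 1198 bp apart. Site 4, on chromosome 1 from 203275583 to 203276330, was enriched 7.02-fold and 5.36-fold over background in Dox, replicate 1 first, and 4.13-fold and 5.30-fold in PBS. The Dox values lay above the PBS values, by a small margin between Dox replicate 2 and PBS replicate 2. Site 3, from 203274567 to 203275253, was enriched 6.17-fold and 3.94-fold in Dox and 4.73-fold and 2.86-fold in PBS. Site 4 stood above site 3 in 3 of 4 libraries, and PBS replicate 1 had the reverse order. At site 4 the −log10 q was 5.46 and 2.94 in Dox and 0.481 and 3.39 in PBS, so q was at most 0.05 in every library but PBS replicate 1. At site 3 it was 4.01 and 0.830 in Dox and 1.26 and 0 in PBS, and only Dox replicate 1 passed. The value of PBS replicate 1 lay just under the limit of 1.30. In PBS replicate 2 site 3 was an ordinary peak, at the percentile 50.5 of fold in its list, while site 4 was at 97.8. The other 6 BTG2 sites were single peaks, 4 from Dox replicate 1 and 2 from PBS replicate 2, between 2.23-fold and 3.35-fold.

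PLK2 also held 2 shared sites, 1 compact and 1 spread out. Site 2, on chromosome 5 from 57757920 to 57758309, was enriched 5.22-fold and 4.59-fold over background in Dox, replicate 1 first, and 4.60-fold and 3.95-fold in PBS. The PBS values lay at and below those of Dox, and the conditions overlapped by a small margin, since 4.60 in PBS replicate 1 exceeded 4.59 in Dox replicate 2. Its −log10 q was 3.80 and 3.75 in Dox and 1.25 and 1.93 in PBS, and PBS replicate 1 fell just short of 1.30. The 4 summits lay between 57758086 and 57758120, within 34 bp. Site 1, from 57755663 to 57757134, was joined from 5 peaks that do not share a centre. Its leading summits were at 57755866 and 57755879 in Dox replicates 1 and 2 and at 57756820 and 57756812 in PBS replicates 1 and 2. The Dox summits thus lay 933 to 954 bp below the PBS summits along the chromosome, and the summits were 13 bp apart within Dox and 8 bp apart within PBS. Folds were 3.43 and 2.55 in Dox and 2.60 and 4.37 in PBS, and no peak of site 1 had a q of at most 0.05. A second peak of Dox replicate 1, with the same p and 3.03-fold, was 1101 bp wide, had its summit at 57756134 and covered both PBS summits. The peak of Dox replicate 2 ended at 57756204, and the PBS peaks began at 57756644 and 57756646. Only the wide peak of Dox replicate 1 thus joined the PBS peaks to the rest of the site.

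ZMAT3, whose window was the longest, held 1 site and nothing else, on chromosome 3 from 178787793 to 178788178. The fold enrichment was 4.69 and 4.49 in Dox replicates 1 and 2 and 3.11 and 4.92 in PBS replicates 1 and 2. PBS replicate 1 was the low library, and PBS replicate 2 was above both Dox libraries. The −log10 q was 3.18 and 1.53 in Dox and 0 and 2.67 in PBS, so q was at most 0.05 in 3 of 4 libraries. The summits at 178788003, 178787989, 178787990 and 178787978 spanned 25 bp, the least of the 6 shared sites.

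The best SFN peak was weaker than the best peak of each other locus in every library, although some single peaks elsewhere were lower, such as PLK3 site 5 at 2.18-fold in Dox replicate 1. Site 1, on chromosome 1 from 27190651 to 27190936, had a peak in both Dox libraries, 2.29-fold and 3.44-fold, and in no PBS library. It was the only such site in the windows, 1 of 18, against 3.11% of all sites. Site 2, from 27191230 to 27192482, held 2 peaks of Dox replicate 1 (2.47-fold and 2.92-fold), none of Dox replicate 2, and 1 peak of each PBS library, 2.18-fold in replicate 1 and 3.28-fold in replicate 2. The deposited −log10 q of all 6 SFN peaks was 0. In PBS replicate 1 the SFN peak lay at the percentile 8.43 of fold in its list, and the other libraries had their best SFN peak between the percentiles 73.4 and 82.9. No site of the windows had a peak in the PBS pair alone, against 0.928% of all sites.

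**Figure D2:**
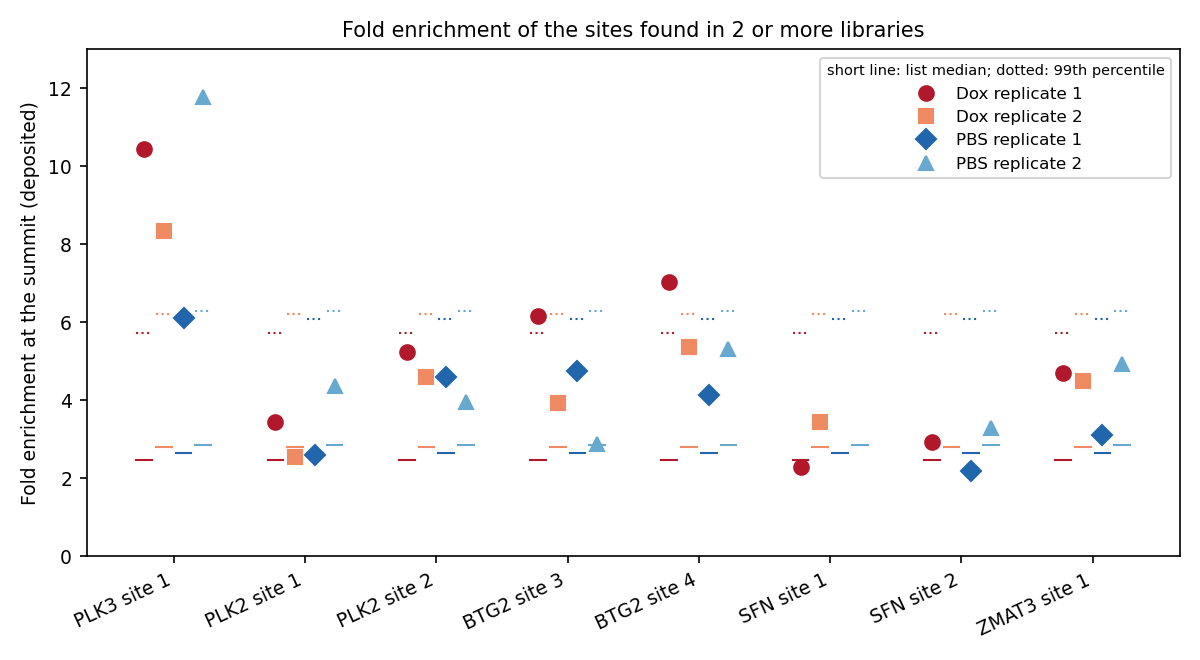
Fold enrichment at the summit (y axis, linear, deposited values) of the 8 sites found in 2 or more libraries (x axis), 1 point per library and no point where a library had no peak; where a library had several peaks in a site, the one with the smallest p is shown. Short lines give the median and dotted lines the 99th percentile of the whole list of that library; PLK3 site 1 is the highest site in each library, and in PBS replicate 1, at 6.10-fold, it is close to the dotted line.

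By fold, the order of the loci by their best peak was the same in 3 of 4 libraries. PLK3 stood above the other genes in 4 of 4 libraries, BTG2 was second in 4 of 4 and SFN last in 4 of 4. PLK2 stood above ZMAT3 in 3 of 4 libraries, and in PBS replicate 2 ZMAT3 was the higher, with 4.92-fold against 4.37-fold. This PLK2 value was of site 1. PLK2 site 2 had 3.95-fold in that library but the smaller p, so the orders by fold and by p used different PLK2 sites there. Ordered by p instead, PLK3 was again first and SFN last in 4 of 4 libraries, but in Dox replicate 2 PLK2 came before BTG2, at rank 278 against 386, and the order was the same in 2 of 4 libraries. The place of PLK2 against ZMAT3, and by p also against BTG2, therefore varied between libraries. BTG2 stood above ZMAT3 in 4 of 4 libraries by fold and by p. In the 1 library where PLK3 was least prominent, PBS replicate 1, the best values were 6.10-fold for PLK3, 4.73-fold for BTG2, 4.60-fold for PLK2, 3.11-fold for ZMAT3 and 2.18-fold for SFN. The BTG2 value in this library was of site 3, and BTG2 site 4, at 4.13-fold, lay below PLK2. The list medians were 2.47, 2.78, 2.64 and 2.85 in Dox replicates 1 and 2 and PBS replicates 1 and 2. A fold depends on the library and its control, so the order was read within each list, and folds of Dox and PBS were not tested against each other. As a description, both Dox folds exceeded both PBS folds at 1 of the 6 shared sites, BTG2 site 4, against 18.3% of all 3840 sites with a peak in the 4 libraries. Both were lower at 0 of the 6, against 9.24%, and at the other 5 sites the conditions overlapped.

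**Figure D3:**
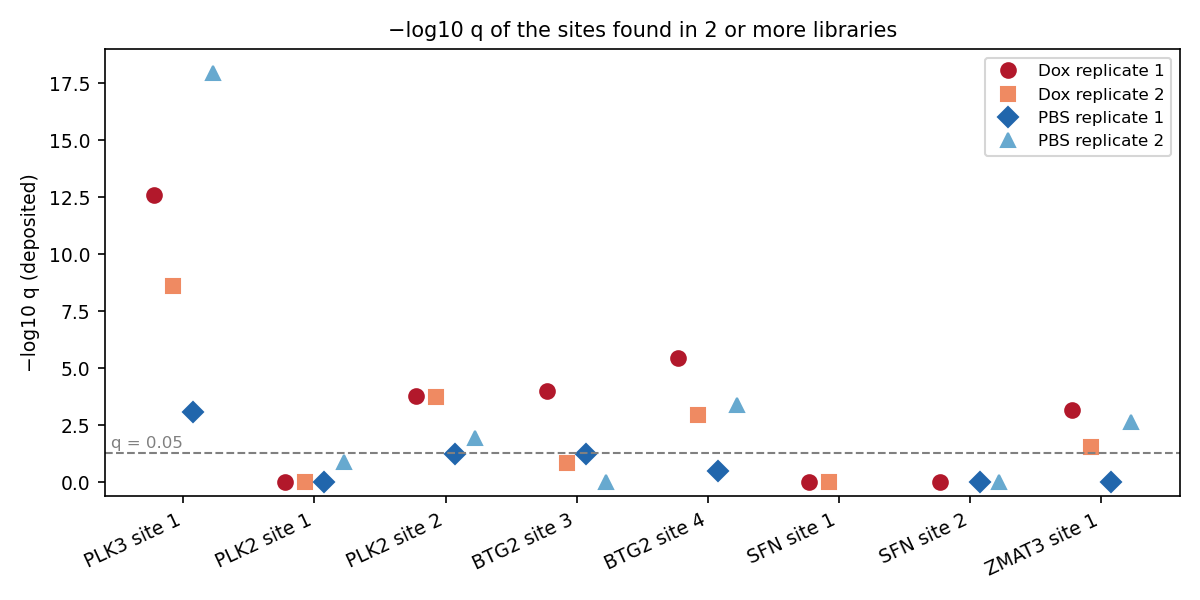
The deposited −log10 q (y axis) of the 8 sites found in 2 or more libraries (x axis), 1 point per library, with the dashed line at q = 0.05. PLK3 site 1 is above the line in all 4 libraries, the leading sites of PLK2, BTG2 and ZMAT3 are above it in every library but PBS replicate 1, and the SFN points lie at 0.

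Taking q of at most 0.05, the windows held 5 and 4 peaks in Dox and 1 and 4 in PBS, replicate 1 first. The single one of PBS replicate 1 was PLK3 site 1. With this limit 4 and 4 windows held a peak in Dox and 1 and 4 in PBS, a difference of the means of 1.5 windows (p = 1.0, exact permutation test, two-sided). Any split of these counts into 2 against 2 gives a difference of that size. The test could thus give no other p, and no conclusion is drawn from it. The low count rests on PBS replicate 1, the library with the shortest list and the lowest share of such peaks.

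The authors also deposited pairs of peaks matched between the replicates of a condition. They gave each pair an irreproducible discovery rate (IDR), which is low where a peak ranks consistently high in both replicates. The windows held 7 Dox pairs and 7 PBS pairs. Of these, 5 Dox pairs and 3 PBS pairs had an IDR of at most 0.05, against 27.5% of all Dox pairs and 15.0% of all PBS pairs. PLK3 site 1 had an IDR of 3.01e-06 in Dox and 8.7e-05 in PBS, and ranked 83 of 8784 and 110 of 6244 pairs. PLK2 site 2 had 5.13e-05 in Dox and 0.00744 in PBS, and BTG2 site 4 had 1.26e-05 and 0.0113. At BTG2 site 3 the IDR was 0.000597 in Dox and 0.496 in PBS, and at ZMAT3 site 1 it was 0.00141 and 0.130. These pairs passed the limit in Dox and not in PBS, which is no test of a difference, since there is 1 table per condition. PLK2 site 1 and the SFN pairs were above the limit in both conditions, between 0.231 and 0.482. The Dox pair of SFN was site 1 and the PBS pair was site 2.

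Summit positions of the leading sites lay within 105 bp between libraries at PLK3, PLK2, BTG2 and ZMAT3. At SFN site 2, the leading site of SFN, the summits of 3 libraries spanned 436 bp. At the sites shared by all 4 libraries, the summits spanned 25 bp at ZMAT3 site 1, 34 bp at PLK2 site 2 and 46 bp at PLK3 site 1. The spans were 64 bp at BTG2 site 3, 105 bp at BTG2 site 4 and 954 bp at PLK2 site 1. Over all 3840 sites with a peak in the 4 libraries the median span was 205 bp, with quartiles of 91 and 438 bp, and 11.7% had all summits within 50 bp. The strongest of these sites had narrower spans: among the 1000 of these sites with the smallest mean p, the median was 83 bp and 31.2% lay within 50 bp. Of the 6 sites in the windows, 3 lay within 50 bp. By mean −log10 p they ranked 95 (PLK3 site 1), 339 (BTG2 site 4), 387 (PLK2 site 2), 567 (ZMAT3 site 1), 636 (BTG2 site 3) and 2440 (PLK2 site 1) of 3840, so 5 of the 6 belonged to those 1000.

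**Figure D4:**
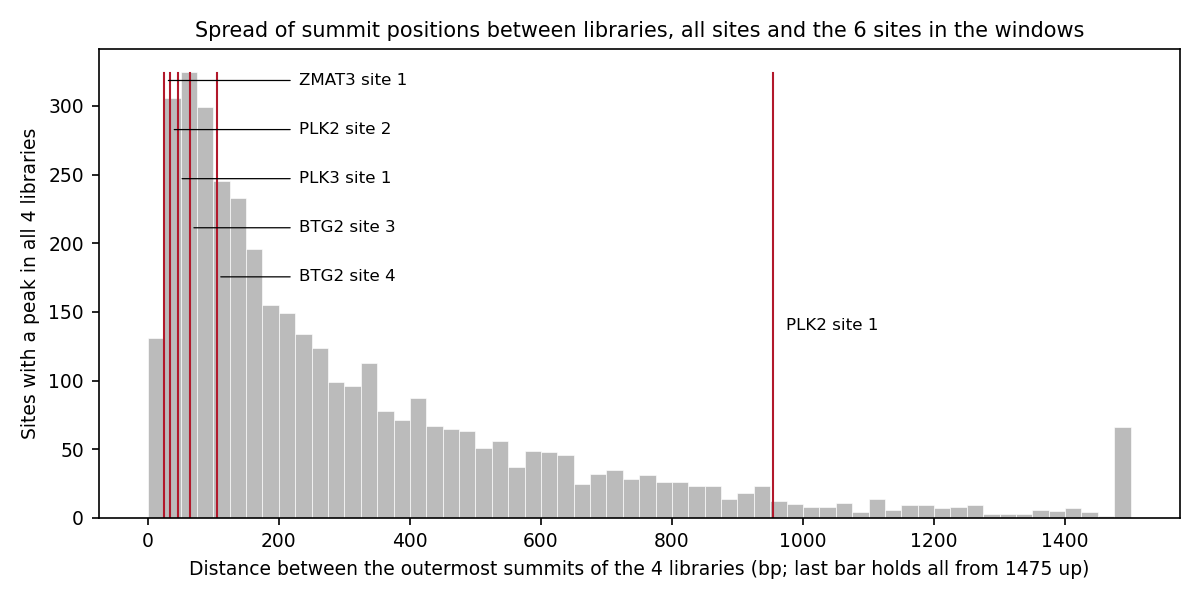
Number of sites with a peak in all 4 libraries (y axis) by the distance in bp between the outermost of the 4 summits (x axis, bins of 25 bp, the last bar holding all larger spans). Red lines mark the 6 sites in the windows; 5 of them lie at 105 bp or less, below the median of 205 bp, and PLK2 site 1 lies at 954 bp.

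By the median, peaks at these loci were also wide for their lists. Not every member peak was, and ZMAT3 site 1 in PBS replicate 1 was 224 bp wide. The median width of member peaks was 393.5 and 373 bp in Dox replicates 1 and 2 and 374 and 382 bp in PBS replicates 1 and 2, against 282, 288, 281 and 281 bp for the whole lists. The median fold of the member peaks was 2.92, 4.49, 4.13 and 3.95 in the same order, above the list median in each library. Of the 41 member peaks, 25 lay in sites shared by all 4 libraries. The widths and folds of such sites elsewhere were not compared, so neither is read as a trait of these loci. Of the 18 member peaks of Dox replicate 1, 8 were in no other library. Over the whole series, 30961 sites were of Dox replicate 1 alone, beside its list of 46658 peaks, so such peaks were common throughout that list.

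The number of member peaks did not differ between Dox and PBS beyond the spread of the replicates. The windows held 18 and 7 peaks in Dox replicates 1 and 2 and 7 and 9 in PBS replicates 1 and 2. Dox thus averaged 12.5 ± 7.78 peaks and PBS 8.0 ± 1.41 (SD, n = 2 per condition), and a two-sided exact permutation test gave p = 1.0, where 0.33 is the smallest possible p. Only Dox replicate 1 stood apart, and without it the difference of 4.5 peaks became -1. Relative to list length the libraries held 3.86, 4.21, 6.19 and 3.92 member peaks per 10000 peaks. The means on this scale were 4.03 ± 0.246 for Dox and 5.05 ± 1.61 for PBS, so the sign turned (two-sided exact permutation p = 0.667). The turn rested on PBS replicate 1, and without that library the difference was 0.115 per 10000 peaks. Replicate number and passage cannot be told apart in this design, so a p-value here reflects the spread of libraries that also differ in passage.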

How the data were processed

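ChIP-seq peak lists of p53 in 293T cells were used for 4 libraries, 2 with doxorubicin and 2 with PBS, and 4 input samples were not analysed here. BWA, MACS2 and hg19 are named in the submitters' processing notes, without versions or filters. The authors deposited 1 list per library, called separately, and the peak names state a threshold of p under 0.05. Each deposited peak carries a fold enrichment (a ratio to the local background) and its p-value and q-value as −log10. The deposited summit is a chromosome coordinate, given here unchanged, and peak starts were moved to 1-based. The deposited tables of matched pairs give the IDR, which is a different measure from the q-value of a peak.

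Peaks sharing 1 bp were merged into sites. A site with several peaks of a library is given by the one with the smallest p. Percentiles are shares of the same list with a lower fold. Tiles of 25 and 75 kb ran from the first to the last peak of each chromosome. The merging was tested on simulated data with planted sites. Depth is unknown, so no counting intervals were given. Two-sided exact permutation tests compared libraries. The members, windows and rules were chosen with earlier results of these data known. All 5 loci are reported by rule, and other p53 targets were not analysed here because no hg19 annotation was used. Alternatives were a q limit, equal list lengths, other overlap rules, wider windows, a replicate block and leaving out each library. Tables were handled with pandas 2.3.3 and numpy 2.4.6 under Python 3.11.15, tests with scipy 1.17.1 and plots with matplotlib 3.10.9.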

Additional observations from a re-analysis of the deposited data

Results flagged for a closer look

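By raw count, the difference in member peaks between Dox and PBS changed sign between the passages. Within number 1, from passage 3, the windows held 11 more peaks in Dox, and within number 2, from passage 5, the difference was -2 peaks. With a single Dox and a single PBS library at each passage, this change of sign was not tested. Dox replicate 1 also had the longest list, with 46658 peaks against 11304 in PBS replicate 1, and the part of list length in this result was not tested. At equal list length the mean difference was 1 peak. Per 10000 peaks of the list the signs were the reverse of the raw counts. Passage 3 had 3.86 member peaks in Dox against 6.19 in PBS, and passage 5 had 4.21 against 3.92.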

How the results depend on the processing

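All 5 windows held a peak in each library under equal list length and with the summit, or at least 50% of the peak, required inside the window. With q of at most 0.05 the difference in windows with a peak became 1.5, SFN had a peak in 0 libraries, and 1 site was called in all 4 libraries and 0 in both Dox and no PBS library. The difference in the number of peaks, 4.5, was -1.02 per 10000 peaks of the list and ran from -1 to 10 when each library was left out; per 10000 peaks (added after the data were seen) it was then -0.848 without Dox replicate 1, -1.20 without Dox replicate 2, 0.115 without PBS replicate 1 and -2.16 without PBS replicate 2. The replicate block gave 4.5 peaks and 0 windows (sign-flip permutation p = 1.0, smallest possible p 0.5). For windows the difference was 0 at each replicate number, so that p was fixed in advance. When each library was left out, the patterns were defined on the remaining libraries only. Sites in all remaining libraries then ran from 5 to 7. Sites in every remaining Dox and no remaining PBS library ran from 1 to 10, and the reverse pattern from 0 to 2. The count of 10 came without Dox replicate 2, so these sites needed a peak in Dox replicate 1 only. At equal list length 0 sites were exclusive to the Dox pair. Grouping summits up to 200 bp apart, an alternative added after the data were seen, gave 2 sites found in Dox alone by both libraries and 1 found so in PBS, since PLK2 site 1 came apart, and 5 in all libraries. With windows widened by 10 kb, 1 site was exclusive to the PBS pair and the matched pairs differed by -1; with an IDR of at most 0.05 they differed by 2. Leaving out a library is not possible for matched pairs. Read depth is unknown, and what it limits was not tested.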
